A study of Mus musculus with 4 samples.

Results

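The Hedgehog genes Shh, Boc, Ptch1, Hhip, Smo, Sufu, Gli1, Gli2 and Gli3 were followed in embryonic mouse hearts with and without Salvador. They were found as the probes whose single gene symbol in the platform's probe annotation is one of these names, which gave 15 probes for 9 genes, out of 29922 probes and 16675 genes on the array. For genes with several probes the brightest over the 4 arrays was taken as the main one, and the other 6 probes are given beside it. The arrays were single-colour and read Cy5-labelled RNA amplified from pools of whole hearts at embryonic day 9.5, of the strain C57bl/6 x129 hybrid. There were 2 control pools, of wild-type genotype, and 2 Salv CKO pools, with a conditional knockout of Salvador (Sav1), a scaffold of the Hippo kinase cascade. The comparison asks which genes depend on Hippo signalling while the heart forms. The sources used here do not give the Cre driver, the cells in which it acts or the number of hearts per pool, and the p-values measure the spread between pools.

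Hedgehog ligands are secreted signals. They bind the receptor Patched and so release Smoothened, a membrane protein that works in the primary cilium, and Smoothened frees the Gli transcription factors from Sufu, the protein that holds them back. Active Gli factors switch on target genes, among them Gli1, Ptch1 and Hhip. Ptch1 and Hhip bind the ligand and so restrain the signal. Near the embryonic heart, Shh is made by the foregut endoderm, and cells of the second heart field respond to it.

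In the Salv CKO pools Hhip, a decoy that binds Hedgehog ligands, rose 2.39-fold, and Gli2, the main activating Gli factor, rose 2.02-fold on its brightest probe. Sufu, the inhibitor of the Gli factors, fell by 0.59 on the log2 scale on its brightest probe. The other 6 members did not pass the test (limma, Benjamini-Hochberg over 16675 genes, threshold 0.05), although Shh, Ptch1 and Smo lay above the controls in both Salv CKO pools. So 2 of 9 members were called higher and 1 lower, where 4.92% of all genes were called higher and 5.70% lower. Gli2 and Sufu each had a second probe, above background on all arrays, that showed no call.

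The starts of the genes that passed, and of Smo, whose second probe passed, are shown here because the question is about genes downstream of Hippo, whose coactivator Yap acts through Tead factors. Each sequence is the RefSeq window of GRCm38.p6 from 250 bases before to 50 bases after the annotated start, 5′ to 3′ on the gene's strand, and capitals mark matches to the Tead motif CATTCC on either strand. They lie at chr1:119053570-119053869 (minus strand) for Gli2, chr8:80057959-80058258 (minus strand) for Hhip, chr19:46396646-46396945 (plus strand) for Sufu and chr6:29735247-29735546 (plus strand) for Smo.
Gli2: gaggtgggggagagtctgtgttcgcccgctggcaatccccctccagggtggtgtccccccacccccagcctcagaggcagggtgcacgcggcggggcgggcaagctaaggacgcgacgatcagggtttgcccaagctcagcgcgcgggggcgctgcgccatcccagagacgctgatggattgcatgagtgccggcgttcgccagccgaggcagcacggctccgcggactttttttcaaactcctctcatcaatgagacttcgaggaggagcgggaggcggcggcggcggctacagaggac
Hhip: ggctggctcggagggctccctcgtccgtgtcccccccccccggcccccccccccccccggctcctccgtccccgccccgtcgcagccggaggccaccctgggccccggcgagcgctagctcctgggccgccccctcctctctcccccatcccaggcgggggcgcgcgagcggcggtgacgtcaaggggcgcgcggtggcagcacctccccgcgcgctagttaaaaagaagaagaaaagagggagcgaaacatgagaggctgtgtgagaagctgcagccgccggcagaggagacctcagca
Sufu: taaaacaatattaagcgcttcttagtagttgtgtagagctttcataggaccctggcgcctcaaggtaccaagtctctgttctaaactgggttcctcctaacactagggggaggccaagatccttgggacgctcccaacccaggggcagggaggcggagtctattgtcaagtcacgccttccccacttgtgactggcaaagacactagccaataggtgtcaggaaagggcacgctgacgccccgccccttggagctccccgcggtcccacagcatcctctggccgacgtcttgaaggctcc
Smo: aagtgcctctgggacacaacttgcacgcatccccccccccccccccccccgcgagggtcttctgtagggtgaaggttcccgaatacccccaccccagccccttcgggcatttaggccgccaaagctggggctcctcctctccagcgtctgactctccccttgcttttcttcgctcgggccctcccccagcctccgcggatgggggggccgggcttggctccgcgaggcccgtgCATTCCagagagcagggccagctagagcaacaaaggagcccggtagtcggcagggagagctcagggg

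The promoter table held 6 of the 9 members (Gli2, Smo, Hhip, Gli3, Ptch1 and Sufu). The Tead motif was present in 1 of them, Smo, and in 14.7% of all 32851 windows of that length. The Gli motif GACCACCCA was absent from all 6 windows on both strands, also with 1 mismatch allowed, which 6.74% of all windows held. A match or its absence describes these letters in this window and says nothing of the factors' binding.

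Values below are log2 intensities after quantile normalisation, with values under an intensity of 1 set to 1, and differences are Salv CKO minus control with limma's standard error (n = 2 pools per group). Intensities over 16 were taken as above background. In 9038 of the 16675 genes, 54.2%, the groups did not overlap, 25.2% with both Salv CKO pools above the controls and 29.0% with both below. Among the members this held for 6 genes above and 1 below. Of these 6, Boc was below the background limit on every array. With 2 pools against 2, an exact permutation test of a single gene cannot go below p = 0.333 (two-sided), and the 3 calls draw on the spread estimated over all genes. When any 1 of the 4 arrays was left out, no gene of all 16675 passed, these 3 included, so that these fits say nothing of the 3 genes in particular (limma adjusted p = 0.189 to 0.201 for Gli2, 0.199 to 0.253 for Hhip and 0.195 to 0.203 for Sufu). Unadjusted limma p-values under 0.05 were found for 7 of 9 members, Boc among them, and for 26.7% of all genes.

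**Figure D1:**
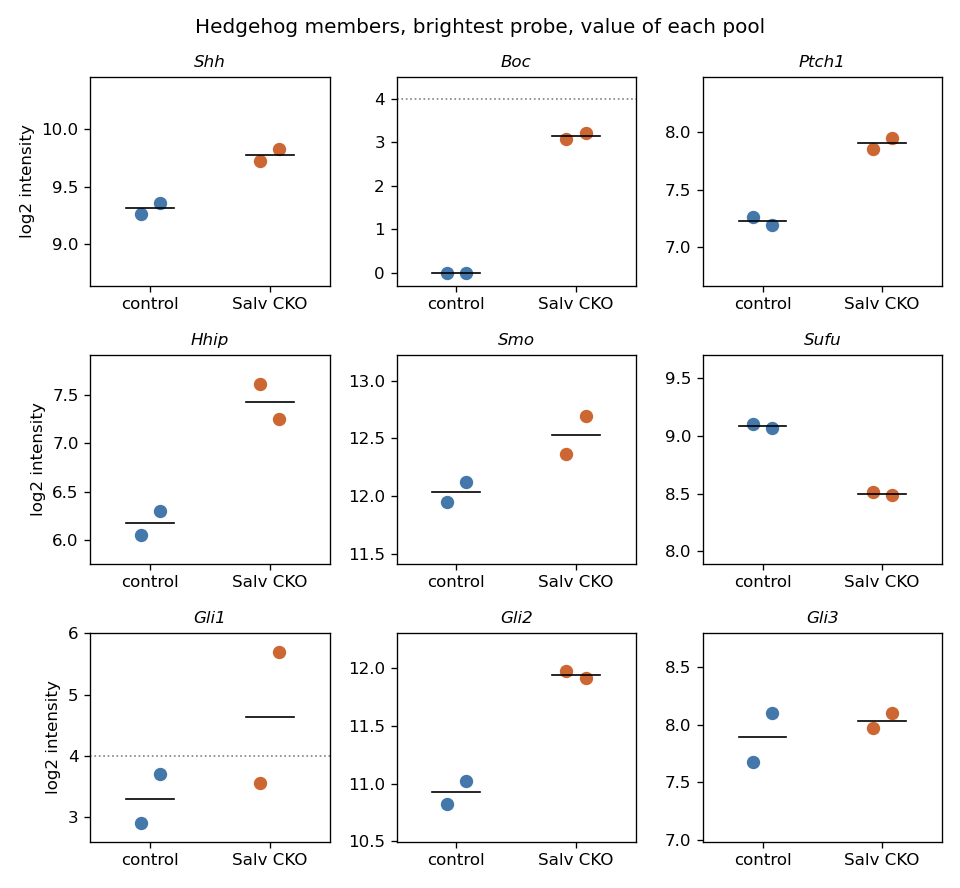
Log2 intensity of the brightest probe of each of the 9 members, with 1 point per pool (blue control, orange Salv CKO) and a line at the mean of each group; the dotted line marks the background limit (log2 4) and each panel has its own scale. Groups overlap for Gli1 and Gli3, both Salv CKO pools lie lower for Sufu and higher for the other 6, and Boc stays under the background limit.

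Shh, the ligand, had 1 probe (mMC005608). Its intensities were 614 and 656 in the controls and 845 and 908 in Salv CKO, so both Salv CKO pools were above both controls. The difference of 0.46 ± 0.10 (SE), with a 95% interval of 0.20 to 0.72, did not pass (limma adjusted p = 0.0543). It depended on the scaling, as described further on. The other ligands and their release factors gave no call: of 7 measured genes 0 passed the limma test, 0 also at an unadjusted p under 0.05, and their median difference was 0.09 against -0.04 over all genes. The members of lowest p were Disp2, of the Dispatched family that releases the lipid-bearing ligand (-0.81 ± 0.50, adjusted p = 0.381), and Dhh, the ligand known from testis and nerve (-0.18 ± 0.13, adjusted p = 0.437). The second probe of Dhh gave -0.74 ± 0.14 (limma adjusted p = 0.0553 over all probes).

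Boc, a cell-surface co-receptor that presents the ligand to Patched, was not above background. Its only probe was listed at -10.7 and -2.92 in the deposited values of the controls and at 7.79 and 9.25 in those of Salv CKO, all under the background limit, so no fold is given. Of 5 other co-receptor genes 0 passed the limma test (0 at an unadjusted p under 0.05), with a median difference of 0.11. Those of lowest p were Lrp2, an endocytic co-receptor, at 0.68 ± 0.47 (limma adjusted p = 0.439), and Gpc3, at -0.04 ± 0.07 (adjusted p = 0.734). The Lrp2 probe lay near the background limit, at 13.8 and 16.4 in the controls and 21.2 and 27.3 in Salv CKO. Its other probe, under the limit on all arrays, was at -1.84 ± 0.87. Gas1, a membrane-anchored co-receptor, was at 0.20 ± 0.33 (adjusted p = 0.754), with intensities of 314 and 293 in the controls and 249.8 and 487 in Salv CKO. One Salv CKO pool of Gas1 was thus below and the other above both controls.

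Ptch1, the receptor and a standard readout of active Hedgehog signalling, had intensities of 154 and 146 in the controls and 231 and 247 in Salv CKO on its brightest probe. The Salv CKO pools lay above the controls, with little spread in either group. The difference of 0.67 ± 0.16 (95% interval 0.25 to 1.09) did not pass (limma adjusted p = 0.0685). Its other probes were mostly at background: mMC011405 was under the limit on all 4 arrays, and mMR028684 was above it on 1 array, control pool 2, at an intensity of 44.5.

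Hhip, also a target of Gli factors, had the largest difference among the members measured on all arrays. Its only probe (mMR029469) read 66.5 and 78.5 in the controls and 196 and 152 in Salv CKO, with no overlap. The mean log2 level was 6.18 ± 0.17 (SD, n = 2) in controls against 7.43 ± 0.25 (SD, n = 2) in Salv CKO, which is a difference of 1.26 ± 0.25 (95% interval 0.62 to 1.89, limma adjusted p = 0.0423). The call was close to the threshold: adjusted over all 29922 probes it had an adjusted p of 0.0549. Where the Hhip and Ptch1 values are set against each other within each array, the log2 ratio was -1.45 and -0.89 in the controls and -0.23 and -0.67 in Salv CKO, a shift of 0.72 beside a gap of up to 0.56 within a group.

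Smo, the transducer across the membrane, had a pair of probes that were above background on all arrays. The brighter read 3953 and 4458 in the controls and 5282 and 6610 in Salv CKO, a difference of 0.49 ± 0.13 (95% interval 0.15 to 0.84) that did not pass (limma adjusted p = 0.0883). The dimmer (mMR027742) read 249 and 213 in the controls and 414 and 417 in Salv CKO, and its difference of 0.85 ± 0.14 did pass in the fit over all probes (limma adjusted p = 0.0388), where 6.30% of probes were called. On both probes the Salv CKO pools were above the controls. The mean of the probes gave 0.67 ± 0.09 (limma adjusted p = 0.0252).

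Sufu, which binds Gli factors in the cytoplasm, was the member that fell. Its brightest probe (mMC002219) read 549 and 537 in the controls and 364 and 359 in Salv CKO, so the pools of a group nearly coincided and the groups were apart. The mean log2 level was 9.09 ± 0.02 (SD, n = 2) in controls against 8.50 ± 0.01 (SD, n = 2) in Salv CKO, which is a difference of -0.59 ± 0.11 (95% interval -0.87 to -0.31, limma adjusted p = 0.0376). The second probe (mMR027979) read 227 and 178 in the controls and 182 and 218 in Salv CKO, with overlapping groups and a difference of -0.01 ± 0.20 (95% interval -0.53 to 0.51, limma adjusted p = 0.982). With the mean of both probes the difference was -0.30 ± 0.14 and was not called (adjusted p = 0.289).

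Gli2 passed with the lowest adjusted p of the members. Its brightest probe (mMC022943) read 1818 and 2086 in the controls and 4015 and 3860 in Salv CKO. The mean log2 level was 10.93 ± 0.14 (SD, n = 2) in controls against 11.94 ± 0.04 (SD, n = 2) in Salv CKO, which is a difference of 1.02 ± 0.09 (95% interval 0.77 to 1.26, limma adjusted p = 0.0102). The second Gli2 probe (mMC014931) read 241 and 272 in the controls and 242 and 254 in Salv CKO, and its difference of -0.05 ± 0.14 (95% interval -0.41 to 0.32, limma adjusted p = 0.893) lay well below that of the first. The mean of the probes was 0.48 ± 0.10, without a call (adjusted p = 0.0617). The sources used here do not say which transcripts each probe reads.

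Gli3, the main repressing Gli factor, showed no call on either probe. The brightest read 205 and 274 in the controls and 251 and 274 in Salv CKO, with overlapping groups, and differed by 0.15 ± 0.20 (95% interval -0.36 to 0.65, limma adjusted p = 0.698). The second (mMC011030) was above background on 3 of 4 arrays, at 22.0 in 1 control and at 41.8 and 31.6 in Salv CKO, with a difference of 1.57 ± 0.73 (limma adjusted p = 0.308). Gli1, the Gli factor that is itself a target and so a common readout, was hardly measured: its only probe (mMC011618) was above background in 1 pool, Salv CKO pool 2, at an intensity of 52.2, against 7.50 and 13.0 in the controls and 11.8 in the other Salv CKO pool. These arrays therefore give no measure of Gli1 in 3 of the 4 pools.

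**Figure D2:**
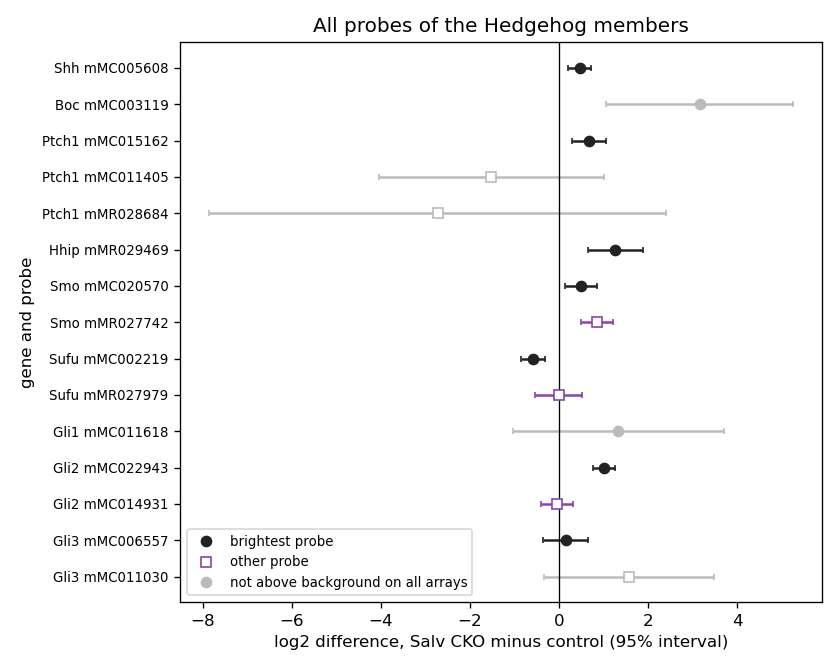
Log2 difference (Salv CKO minus control) of each of the 15 member probes with its 95% interval from the limma fit over all probes; filled circles are brightest probes, open squares other probes, and grey marks probes not above background on all 4 arrays. For Gli2 and Sufu the intervals of the brightest probe lie clear of 0 while those of the second probe are centred near 0, and both Smo probes lie above 0.

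The differences depended on the scaling of the arrays. For the 12402 genes measured above background throughout, the median difference was -0.04 after quantile normalisation, -0.03 with each array divided by its 75th percentile, -0.17 with median-centred arrays and -0.44 without any scaling. Hhip and Gli2 stayed above 0 and Sufu below 0 under all of these, with ranges of 1.03 to 1.44, 0.50 to 1.02 and -1.02 to -0.59. With the values as deposited Hhip and Gli2 lost their calls (limma adjusted p = 0.107 and 0.0780), Shh was at -0.0052, Smo at -0.028 and Gli3 at -0.24, and Ptch1 was at 0.31. These are the brightest probes. The second Smo probe was deposited at 253 and 264 in the controls and at 347 and 364 in Salv CKO. The share of all calls that were higher was 46.3% after quantile normalisation, 22.3% with medians centred and 6.88% with the values as deposited. Among the members the calls were 2 higher and 1 lower, 2 and 1, and 0 and 1 in the same order.

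**Figure D3:**
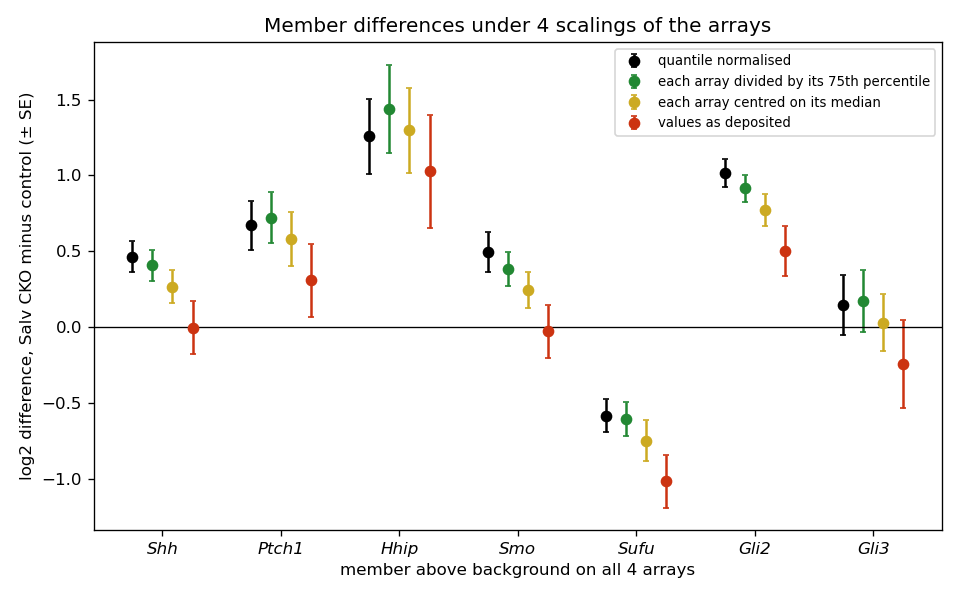
Log2 difference (Salv CKO minus control, ± SE from limma, n = 2 pools per group) of the 7 members above background on all arrays, under 4 scalings given by colour. All members move down with the values as deposited, where Shh and Smo lie at -0.0052 and -0.028, while Hhip and Gli2 remain above 0 and Sufu below it.

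A ratio between members of the same array does not depend on that array's scale. These ratios were computed from the deposited values after the differences had been seen, and are given without a test; their level has no meaning across probes, only their shift. On the brightest probes, the log2 ratio of Gli2 to Sufu was 1.77 and 1.96 in the controls and 3.43 and 3.35 in Salv CKO, a shift of 1.52, or 2.87-fold, where pools of a group differed by at most 0.19. This shift holds the fall of the Sufu probe as well as the rise of Gli2. Against the second Sufu probe, whose groups overlapped, Gli2 shifted by 0.88 (gap of up to 0.47), Hhip by 1.40 (0.87) and Ptch1 by 0.69 (0.31). Shh shifted by 0.37 (0.41), Smo by 0.35 (0.42) and Gli3 by 0.14 (0.79), each less than the gap between pools of a group. Against the brightest Sufu probe, which itself fell, all these shifts were larger than the gap. They were 1.01 (0.13) for Shh, 0.99 (0.28) for Smo, 0.78 (0.52) for Gli3, 1.33 (0.13) for Ptch1 and 2.05 (0.59) for Hhip. On their brightest probes, the activator Gli2 and the repressor Gli3 also changed unequally, by 0.74 beside a gap of up to 0.32. This did not extend to their second probes, where the differences after quantile normalisation were -0.05 for Gli2 and 1.57 for Gli3. The second Gli3 probe was above background on 3 of 4 arrays. The second probes of Gli2 and Sufu against each other shifted by -0.06 (gap of up to 0.53). Within Gli2 the brightest probe moved 0.94 more than the second, with a gap of up to 0.19. Within Smo the ratio of the brightest to the second probe shifted by -0.49, with a gap of up to 0.30.

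The other genes of the pathway were read from lists chosen with earlier results of these data known, and are described by counts only. Of 25 measured transducers, cilium genes and Gli regulators, 1 was called higher and 1 lower, with a median difference of -0.23, beside 4.92% and 5.70% of all genes. The counts were 0 and 10 with the values as deposited, 0 and 3 with median-centred arrays and 1 and 3 with each array divided by its 75th percentile. Fkbp8, which restrains Hedgehog signalling in the neural tube, read 5370 and 5344 in the controls and 3279 and 3458 in Salv CKO, without overlap. It fell by 0.67 ± 0.07 on the log2 scale (limma adjusted p = 0.0116), and was called lower under each of the 4 scalings. Cul3, the ubiquitin ligase scaffold that with Spop turns over Gli proteins, rose by 0.36 ± 0.07 (adjusted p = 0.0417), but was at -0.11 with the values as deposited and at 0.0013 on its second probe.

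Of 24 measured genes known to respond to Hedgehog in embryos, 5 were called higher and 1 lower, with a median difference of 0.02, beside the same 4.92% and 5.70% of all genes. The counts were 2 and 3 with the values as deposited, 2 and 2 with median-centred arrays and 6 and 1 with each array divided by its 75th percentile. The forkhead genes Foxf1 (listed as Foxf1a) and Foxf2, which mark mesenchyme next to Hedgehog-producing endoderm, had the largest differences among those called. Foxf1a read 198 and 179.6 in the controls and 599 and 537 in Salv CKO and rose by 1.59 ± 0.14 (limma adjusted p = 0.00946). Foxf2 read 179 and 156 in the controls and 446 and 411.5 in Salv CKO and rose by 1.36 ± 0.15 (adjusted p = 0.0132). Both were called higher under each of the 4 scalings, and in neither did the groups overlap.

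Sox9, a factor of cartilage and cushion mesenchyme, rose by 0.76 ± 0.10 (limma adjusted p = 0.0167), Nkx6-1, of the ventral neural tube and pancreas, by 0.67 ± 0.14 (adjusted p = 0.0466), and Osr1, of the posterior second heart field, by 0.49 ± 0.08 (adjusted p = 0.0317). None of these 3 was called with the values as deposited, at 0.25, 0.26 and -0.011, or with median-centred arrays, at 0.52, 0.53 and 0.26. With each array divided by its 75th percentile all 3 were called (limma adjusted p = 0.0205, 0.0418 and 0.0414). Tbx2, which represses chamber genes in the atrioventricular canal, fell by 0.71 ± 0.10 (adjusted p = 0.0186), and was called lower under each of the 4 scalings.

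**Figure D4:**
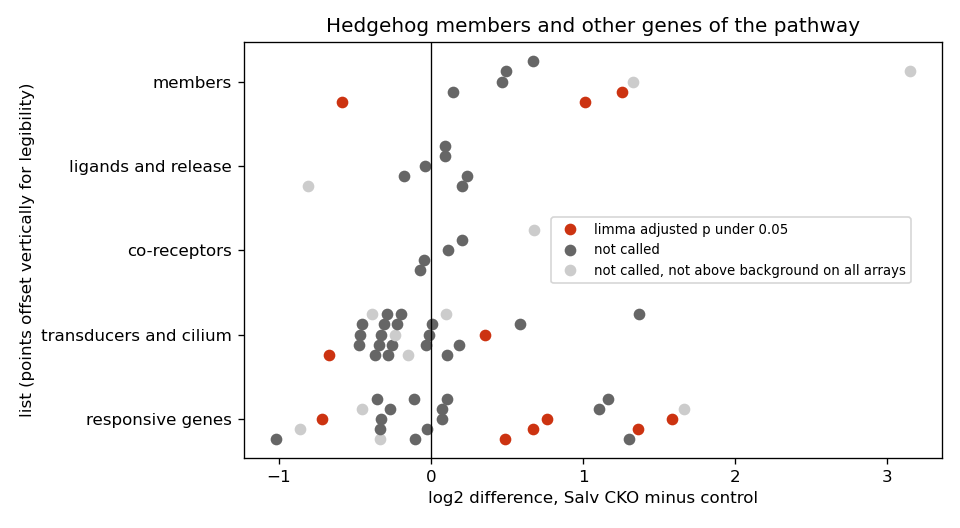
Log2 difference (Salv CKO minus control) of each measured gene, by list, with red for a limma adjusted p under 0.05, dark grey for genes not called and light grey for genes not called and not above background on all arrays. The ligand and co-receptor rows hold no red point, and the responsive genes hold 5 red points above 0 and 1 below.

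Summed markers of several tissues also differed between the groups. Several marker lists share genes with the Hedgehog-responsive list, so they are not independent of it. Shared are Foxf1a, Osr1 and Hand2 (second heart field), Olig2, Nkx2-2 and Nkx6-1 (neural tube), Foxa2 (endoderm), and Pax1, Pax9 and Nkx3-2 (somite). Each marker list is named by its 2 brightest genes, whatever their own change. Cardiomyocyte markers, led by Actc1 and Myl2, were above background in all pools. Their summed intensity was 309593 and 337024 in the controls and 258636 and 265026 in Salv CKO, with 5 of 10 genes lower and 0 higher. Actc1 and Myl2 themselves were not called, at 0.05 and -0.13 (limma adjusted p = 0.684 and 0.399). Actc1 read 63278 and 63279 in Salv CKO, and Hba-x of the red cell list 63282 in control pool 1. Whether such bright probes had reached the top of the scale was not tested. Endothelial markers, led by Cdh5 and Pecam1, summed to 12630 and 11930 in the controls and 7780 and 7042 in Salv CKO (2 of 5 lower), and red cell markers, led by Hba-x and Hbb-bh1, to 125129 and 125567 against 104995 and 104486 (2 of 5 lower). Foregut endoderm markers, led by Cldn6 and Foxa1 and of a tissue that makes Shh, summed to 2704 and 3012 in the controls and 6286 and 6369 in Salv CKO (2 of 7 higher). Most of each sum was Cldn6 and Foxa1, the genes called. The 5 not called included Hnf4a at 0.05, Sox17 at 0.18 and Foxa2 at 1.30 (limma adjusted p = 0.927, 0.350 and 0.0595). Neural tube markers, led by Olig2 and Hes5, summed to 5738 and 6617 against 9044 and 9417 (4 of 8 higher). Olig2 itself did not rise, at 4938 and 5898 in the controls and 4700 and 5312 in Salv CKO (-0.11 ± 0.12, limma adjusted p = 0.612). Somite markers, led by Tcf15 and Meox1, summed to 620 and 534 against 3640 and 3650 (3 of 7 higher). Most of each sum was Tcf15, at 388 and 332 in the controls and 3069 and 2999 in Salv CKO. Pax9 and Tbx18 of this list had negative differences without a call, at -1.02 and -0.80 (limma adjusted p = 0.135 and 0.511). Tbx18 was above background on 1 array. Neural crest markers, led by Sox10 and Ets1, summed to 363 and 354 against 1669 and 1681 (3 of 5 higher). Markers of splanchnic and second heart field mesoderm, led by Osr1 and Wnt11, summed to 4486 and 4683 against 5468 and 5494 (3 of 8 higher, 1 lower). The gene called lower was Wnt11 (-1.03 ± 0.09, limma adjusted p = 0.00946). Foxd3 of the crest list was under the background limit on all arrays, and no list had every marker there. In pooled whole hearts, fewer cells of a type and less RNA per cell cannot be told apart, and the part of these tissues in the Hedgehog differences was not tested.

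The genes whose profile over the 4 arrays lay closest to Hhip and Sufu, the called members with the largest difference in each direction, were found by the root mean square distance between log2 values centred per gene, among 12395 other genes above background on all arrays. For Hhip they were Gcg (0.0556), Slc45a2 (0.0731) and Dmrtc1a (0.0762). For Sufu they were Pvrl2, now Nectin2 (0.0122), Exoc3 (0.0134) and Sh3kbp1 (0.0163). These are descriptions over 4 arrays.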

How the data were processed

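The deposited table holds 1 linear probe intensity per array, which the authors had background-subtracted as far as the values show, since 3.37 to 5.99% of them lay below 0 per array; the sources used here give no scanner, scaling or software. Deposited medians were 71.1 to 101. The number of arrays limits the precision.

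Columns were matched to pools by sample accession and grouped by title. Values were quantile normalised, floored at 1, put on the log2 scale and tested with limma 3.58.1 in R 4.3.3 (lmFit, eBayes with intensity trend, two-sided, Benjamini-Hochberg at 0.05), once over 16675 genes by their brightest probe and once over all 29922 probes for the other probes. The procedure was tested on simulated data. Probe names come from an old platform annotation, which named 21020 probes and left 8902 unnamed.

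The members and lists were chosen with earlier results of these data known. The rule named all members, called genes of each list up to 6 (or the 2 of lowest p), and the 3 nearest profiles of the member most changed in each direction. Marker lists are given as sums with their 2 brightest genes. Gas1, markers named beyond these brightest genes, and the genes under Other observations were named outside this rule. Alternatives changed the scaling, floor, filter, probe summary, variance model, replicate block and array left out.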

Additional observations from a re-analysis of the deposited data

How the results depend on the processing

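Calls of single members were sensitive to the variance model as well as to the scaling. Against 2 members called higher and 1 lower, the counts were 0 and 1 with the values as deposited and with a floor of 16, 0 and 0 with a floor of 64 or without the intensity trend, and 1 and 0 with the mean of all probes, where the member called was Smo. They were 5 and 1 when only genes above background entered and with robust eBayes, which added Shh, Ptch1 and Smo. With any 1 array left out they ranged from 0 to 0 for higher and from 0 to 0 for lower, as for all genes (limma); 5 to 8 of 9 members then had an unadjusted p under 0.05, where the full set gave 7. Without the trend 6 had, and with a floor of 64 it was 5. All-gene calls were 821 and 951, against 229 and 3101 as deposited, 377 and 1313 with medians centred, 1239 and 1437 of 12402 when only genes above background entered, 1201 and 1365 with robust eBayes, 253 and 228 with a floor of 16, 257 and 234 with a floor of 64 and 0 and 0 without the trend (3578 at an unadjusted p under 0.05).

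The replicate numbers mark no shared litter or day in the labels, and same-numbered pools correlated at 0.17 in their deviations from the group means. With the replicate number as a block the counts were 3 and 1: Shh (adjusted p = 0.0402) and Smo (0.0252) were called and Hhip was not (0.0532). Over all genes the block gave 1016 and 1195 calls.

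The sign turned, each time without a call, for the brightest probes of Shh (-0.0052), Smo (-0.028) and Gli3 (-0.24) with the values as deposited. It also turned for Ptch1 with the mean of its probes (-1.19). That mean joins the brightest Ptch1 probe, at 0.67, with probes at -1.52 and -2.72 that were not above background on all arrays. Gli3 ranged from -0.064 to 0.35 with 1 array left out. Gli2, Hhip and Sufu kept their sign in every alternative run, within 0.48 to 1.11, 1.03 to 1.44 and -1.02 to -0.30. Boc with a floor of 16 or 64, and Gli1 with a floor of 64, lay at the floor on all arrays and gave no value. The cause of these changes was not tested.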

Other observations

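The cilium genes Tulp3, Ift122 and Kif3a, chosen after their values were seen, lay lower in Salv CKO without passing the test after quantile normalisation. Tulp3, which carries receptors into the cilium, was at -0.47 ± 0.12 (limma adjusted p = 0.0782) and Ift122, of the intraflagellar transport machinery, at -0.45 ± 0.10 (adjusted p = 0.0590). The motor subunit Kif3a was at -0.37 ± 0.10 (adjusted p = 0.0968) on its brightest probe and at 0.17 on another above background on all arrays. All 3 were called lower with the values as deposited (adjusted p = 0.00634, 0.0190 and 0.0205 for Ift122, Tulp3 and Kif3a), where the median over measured genes was -0.44. Tulp3 (0.0332) and Kif3a (0.0280) were also called with median-centred arrays, and Ift122 (0.0432) and Kif3a (0.0477) with each array divided by its 75th percentile. Rab23, of the same list, went the other way at 1.36 ± 0.43 (limma adjusted p = 0.125), with both Salv CKO pools above both controls. It was called higher with each array divided by its 75th percentile (1.59, adjusted p = 0.0495). Of the 25 transducer and cilium genes, 8 had an unadjusted p under 0.05, beside 26.7% of all genes.

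Among Hedgehog-responsive genes, also picked after their values were seen, the floor plate and endoderm factor Foxa2 read 45.9 and 36.2 in the controls and 93.5 and 108 in Salv CKO (1.30 ± 0.30, adjusted p = 0.0595), and was called with each array divided by its 75th percentile (1.47, adjusted p = 0.0381). Nkx2-2, of the ventral neural tube, was at 1.10 ± 0.38 (adjusted p = 0.148). Pax9 and Wnt5a of the same list went the other way without a call, at -1.02 ± 0.34 and -0.33 ± 0.12 (limma adjusted p = 0.135 and 0.162). In both, the Salv CKO pools lay below the controls.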
